A study of Mus musculus with 1279 samples.

Results

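The fibrillar collagens examined here were 8 genes, Col1a1, Col1a2, Col2a1, Col3a1, Col5a1, Col5a2, Col5a3 and Col11a1, chosen by name from the 46517 genes of the heart count table. Their counts were followed across 1279 single cells, which the authors had sorted into clusters 1 to 8. The 926 cells of clusters 1 to 5 were the fibroblasts of the study and the 353 cells of clusters 6 to 8 were taken as mural cells, the smooth muscle cells and pericytes that wrap vessels. Each cell was sequenced with Smart-seq2, a plate-based method that reads full-length cDNA and carries no molecular identifiers. All mice were adult males of 10 to 20 weeks, without any treatment named in the labels, and the transgenic lines had been crossed back to C57Bl6/J. C57BL6 mice, the source of 45.4% of the cells, carried no reporter and were sorted with antibodies against PDGF receptors. In PdgfrbGFP (28.5% of cells), Cspg4dsRED (12.7%) and Acta2GFP (13.4%) a fluorescent protein was driven by the regulatory elements of the gene in the name, so each sort drew on the cells in which that gene was active. Every sort left out cells positive for the endothelial protein CD31, and per the study's methods elastase was added when Acta2-positive cells were freed from Acta2GFP tissue. These 4 strains served as replicates: strain, sort and digestion could not be told apart, 1 plate stood for each transgenic strain while the C57BL6 sums pooled 3 plates, and the labels name no animal, so a p-value measures the spread between strains. Where 4 values follow one another without names, they stand in the order C57BL6, PdgfrbGFP, Cspg4dsRED, Acta2GFP. The clusters had been derived by the authors from the same counts, and genes that separate clusters may have helped to define them.

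Fibrillar collagens are the rope-like proteins that give connective tissue its tensile strength. Each molecule is a triple helix of 3 chains, secreted as a procollagen, trimmed at its ends and packed sideways into fibrils. Type I collagen is built from the chains of Col1a1 and Col1a2, and type III from Col3a1 alone; both form the fibrils of the heart wall. Type V chains (Col5a1, Col5a2, Col5a3) and type XI chains (Col11a1) make minor collagens that sit inside the major fibrils and govern how these start and how thick they become. Type II, from Col2a1, is the collagen of cartilage. Fibroblasts are known as the main source of fibrillar collagen in the heart.

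In GRCm38, the build used for the counts, Col1a1 (ENSMUSG00000001506) lies on the forward strand at chr11:94936224-94953042. Col1a2 (ENSMUSG00000029661) lies on the forward strand at chr6:4504814-4541544. Col3a1 (ENSMUSG00000026043, forward strand, chr1:45311538-45349706) and Col5a2 (ENSMUSG00000026042, reverse strand, chr1:45374321-45503282) are neighbours. Col5a1 (ENSMUSG00000026837) is on the forward strand at chr2:27886425-28039514. Col5a3 (ENSMUSG00000004098) is on the reverse strand at chr9:20770050-20815067. Col11a1 (ENSMUSG00000027966) is on the forward strand at chr3:114030540-114220718 and Col2a1 (ENSMUSG00000022483) on the reverse strand at chr15:97975602-98004695. Exons of 2 members overlapped exons of other annotated genes. Col3a1 shared bases with Gm47302 on its own strand, to which 13819 counts had been assigned, and Col5a1 with Gm13372 (3399 counts) and 2810430I11Rik (1415 counts) on the opposite strand. Whether the counting used strand was not stated, so some reads of these 2 members could not be separated from their neighbours.

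The RefSeq promoter table held 5 of the 8 members. The 150 bases before the RefSeq start site are printed for 4 of them, 3 that were higher in fibroblasts and Col5a3, whose levels followed another order of clusters. For Col1a2 the RefSeq start lies inside the gene span given above, and so does its window. Capitals mark the letters CCAAT of the CCAAT box, TATAAA of the TATA box and GGGCGG of the GC box, searched on both strands. Build GRCm38.p6, each sequence 5′ to 3′ on the strand of its gene, in the order of forward strand chr6:4505468-4505617, forward strand chr1:45311388-45311537, forward strand chr2:27886275-27886424 and reverse strand chr9:20815068-20815217, the windows were as follows.
Col1a2: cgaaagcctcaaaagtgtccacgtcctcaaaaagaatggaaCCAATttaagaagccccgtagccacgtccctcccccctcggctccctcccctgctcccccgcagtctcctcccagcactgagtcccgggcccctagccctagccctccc
Col3a1: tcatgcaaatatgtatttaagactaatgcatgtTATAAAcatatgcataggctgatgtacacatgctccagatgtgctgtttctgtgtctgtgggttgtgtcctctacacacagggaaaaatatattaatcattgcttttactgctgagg
Col5a1: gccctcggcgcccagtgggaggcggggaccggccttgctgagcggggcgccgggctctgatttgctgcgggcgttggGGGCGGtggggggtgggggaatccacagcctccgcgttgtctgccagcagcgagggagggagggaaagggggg
Col5a3: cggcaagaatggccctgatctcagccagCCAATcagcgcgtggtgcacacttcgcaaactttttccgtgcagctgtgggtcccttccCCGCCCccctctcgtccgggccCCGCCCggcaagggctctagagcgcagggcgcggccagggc
CCAAT was found once in Col1a2 and once in Col5a3, both far from the start. The Col3a1 window held TATAAA once, also far from the start, and GGGCGG was found once in Col5a1, at 73 to 68 bases before the start, and as its reverse complement at 2 places in Col5a3, at 63 to 58 and at 41 to 36 bases. Among windows of the same length before all 32851 start sites of the table, 24.5% held CCAAT, 7.57% TATAAA and 28.6% GGGCGG. These letter matches are descriptions of the windows, and the 4 members shared no single one of them.

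Total counts per cell ran from 46268 to 1302397 with a median of 274504, spike-ins left out. Summed markers of fibroblasts (Pdgfra, Dcn, Lum, Fbln1 and Mmp2) averaged 11876 to 15284 CPM (counts scaled to a common library total) in clusters 1 to 5, against 433 in cluster 7 and 1083 in cluster 8. Cluster 6 lay between at 3962 ± 4624 CPM (SD, n = 3 strains), from 1093 CPM in Acta2GFP to 9297 CPM in C57BL6, where it held only 3 cells. The 4 pericyte markers (Kcnj8, Abcc9, Rgs5 and Vtn) summed to 17298 CPM in cluster 8, and the 4 smooth muscle markers (Acta2, Myh11, Tagln and Cnn1) to 11449 CPM in cluster 6 and 12725 CPM in cluster 7. Rgs5, Notch3, Mcam, Des and Pdgfrb, the 5 general mural markers, summed to 274.4 to 570.5 CPM in clusters 1 to 5, and reached 8034 and 11119 CPM in clusters 7 and 8. In cluster 6 they summed to 1796 CPM in Acta2GFP and 2285 CPM in Cspg4dsRED, above its fibroblast markers there (1093 and 1497 CPM), and to 1156 CPM in C57BL6, below them. Markers of valve or tendon-like cells (Wif1, Comp, Scx, Fmod and Thbs1) summed to 6724 CPM in cluster 1 and to at most 966 CPM elsewhere. Summed markers of heart muscle cells averaged 11.3 to 131.4 CPM in clusters 1 to 5 and 104.2 to 372 CPM in clusters 6 to 8, those of endothelial cells 5.6 to 67.7 and 9.81 to 115.6 CPM, and those of immune cells 2.66 to 21.5 and 4.92 to 64.7 CPM. Tnnt2 of heart muscle had a count in 319 cells, Pecam1 of endothelium in 671, Lyz2 of myeloid cells in 310 and Wt1 of the epicardium in 33, while Cd3e of T cells and Msln of the epicardium were at 0 in every cell. The part of these cell types in the collagen levels was not tested.

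Fibroblasts were compared with mural cells to ask how far fibrillar collagen expression separates the populations. Both type I chains, Col3a1 and the Col5a1 chain of type V were higher in fibroblasts, with fitted folds between 2.66 for Col3a1 and 6.03 for Col5a1, while Col5a2 and Col5a3 did not pass the test. In fibroblasts of the 4 strains, Col1a1 stood at 2281, 2505, 2091 and 2150 CPM. In mural cells it stood at 544, 368, 366 and 482 CPM, and the groups did not overlap. The partner chain Col1a2 had 1773, 1776, 2026 and 1959 CPM in fibroblasts and 636, 281.3, 652 and 513 CPM in mural cells. Col3a1 had 1706, 1349, 1987 and 2099 CPM against 991, 342, 472 and 856 CPM. Mural cells of C57BL6 and Acta2GFP came closest to the fibroblasts in Col3a1.

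**Figure D1:**
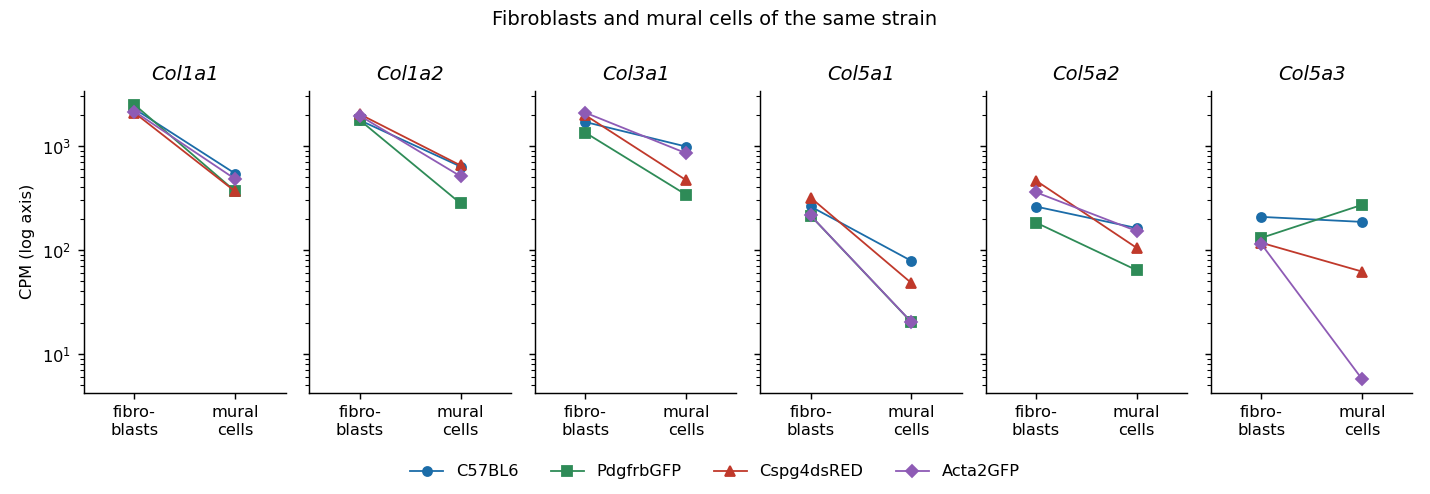
CPM (log axis) of 6 fibrillar collagens in summed fibroblasts and summed mural cells, with a line joining the 2 sums of each of 4 strains. Every line falls for Col1a1, Col1a2, Col3a1, Col5a1 and Col5a2, while for Col5a3 the PdgfrbGFP line rises from 131.05 to 272.5 CPM and the Acta2GFP line drops from 114.5 to 5.75 CPM.

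Among the 3 type V chains the strains differed more. Col5a1 had 262.9, 214.8, 320 and 215.4 CPM in fibroblasts, and 78.8, 20.3, 48.3 and 20.4 CPM in mural cells. Col5a2, the second chain of the common type V molecule, had 262.3, 183.96, 466 and 360 CPM against 162.96, 64.1, 105.04 and 152.6 CPM, again without overlap. Col5a3, a chain of a rarer form of type V, had 208.7, 131.05, 117.6 and 114.5 CPM in fibroblasts and 186.8, 272.5, 62.2 and 5.75 CPM in mural cells. The mural sums of Col5a3 thus spread from 5.03% to 207.9% of the fibroblast sum of the same strain.

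Counts summed per strain and population were tested with the edgeR quasi-likelihood test, with adjustment over all 15117 genes tested, of which 5.93% were called. Of the 7 members tested, 4 were called and all 4 were higher in fibroblasts. The median log2 fold change over the 7 was 1.85, against -0.02 over all genes. Col1a1 had a log2 fold change of 2.35 (SE 0.25, adjusted p 0.000605) and Col1a2 one of 1.85 (SE 0.28, adjusted p 0.0041). Col3a1 followed at 1.41 (SE 0.34, adjusted p 0.0352) and Col5a1 at 2.59 (SE 0.46, adjusted p 0.00901). All 4 were higher in fibroblasts in 4 of 4 strains. Col5a2 had a log2 fold change of 1.37 (SE 0.36, adjusted p 0.0513), higher in 4 of 4 strains, and passed with the strain as a block (adjusted p 0.0492), as did 4.81% of all genes. It also passed without clusters 1 and 6 (0.014, with 7.27% of all genes) and with 1 C57BL6 plate (0.0443, with 5.87%), but not with DESeq2 size factors (0.0747), without the filter on low counts (0.0801) or without any 1 strain (0.096 to 0.236). DESeq2 and limma-voom each called 5 members, the 4 above and Col5a2 (0.017 and 0.0301), with 12.7% and 9.55% of all genes. Col5a3 had a log2 fold change of 0.06 (SE 0.82, adjusted p 0.987) and was higher in fibroblasts in 3 of 4 strains. The call of Col3a1 was lost with DESeq2 size factors (adjusted p 0.0522) and without any 1 of the 4 strains (0.0681 to 0.161), and that of Col5a1 without Cspg4dsRED (0.0577), without PdgfrbGFP (0.0547) and without clusters 1 and 6 (0.0546).

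Fibroblast markers were also present in mural sums, and their levels are given beside the collagens because the 4 plates with mural cells also held fibroblasts. Mural Pdgfra, the receptor that marks fibroblasts, was 1.13% to 2.62% of the fibroblast value of the same strain. The other 4 fibroblast markers were higher, with 2.72% to 9.26% for Lum, a proteoglycan of collagen fibrils, 2.26% to 9.84% for Fbln1, 5.4% to 14.9% for Mmp2 and 4.84% to 18.5% for Dcn. Mural Col1a1 was 14.7% to 23.9% and mural Col3a1 23.7% to 58.1% of the fibroblast value. Mural Col3a1 lay above all 5 markers in every strain, and mural Col1a1 did so in 3 of 4, being just under Mmp2 in PdgfrbGFP. Within a plate, the Spearman rho over mural wells, between a member's CPM in the well and its summed counts in fibroblast wells of the same plate row or column, was 0.09 to 0.38 for Col1a1 and 0.09 to 0.34 for Col3a1 over 4 plates with at least 37 mural wells each. Dcn, a fibroblast proteoglycan, gave 0.22 to 0.55. For Col5a3 rho was 0.34 in C57BL6, 0.21 in Cspg4dsRED, 0.28 in Acta2GFP and -0.04 in PdgfrbGFP, where the mural level was above the fibroblast level. Wells of a plate share their library preparation and differ in depth, so these values are descriptions, and their part in the mural levels was not tested.

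**Figure D2:**
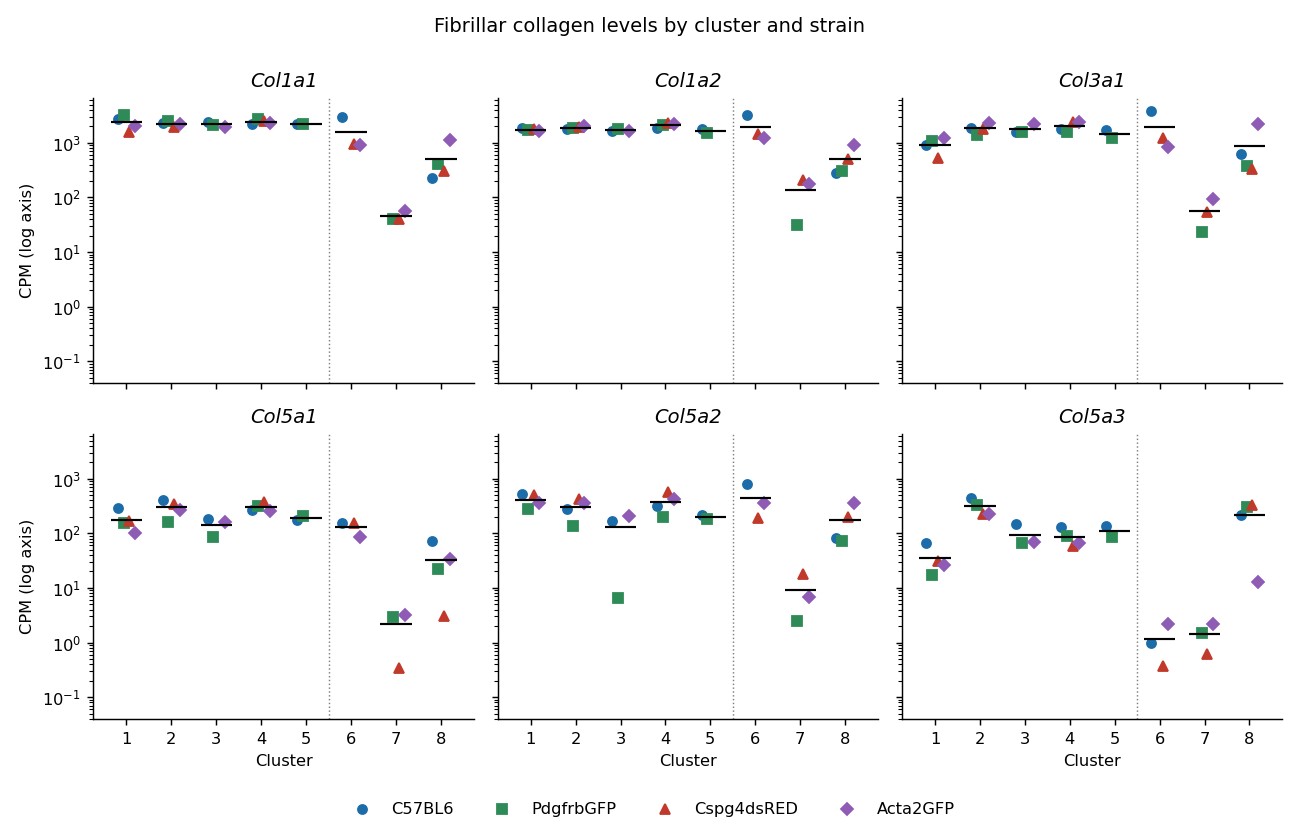
CPM (log axis) of 6 fibrillar collagens in each strain and cluster with 3 or more cells; bars are means over strains and the dotted line separates fibroblast clusters 1 to 5 from mural clusters 6 to 8. Levels overlap over clusters 1 to 5 for Col1a1. For Col1a2, cluster 4 (1836 to 2328 CPM) lies above clusters 3 (1636 to 1791 CPM) and 5 (1510 to 1773 CPM). Cluster 6 reaches the type I levels of clusters 1 to 5 only in C57BL6 (3 cells), and cluster 7 is lowest. Col5a3 is near 1 CPM in clusters 6 and 7 and high in clusters 2 and 8.

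Mural cells were not alike in their fibrillar collagens. Cluster 7, high in smooth muscle markers, had the lowest strain means of both type I chains, Col3a1, Col5a1 and Col5a2. Cluster 6, also high in smooth muscle markers, reached the fibroblast range in type I only through 3 cells of C57BL6. In Cspg4dsRED and Acta2GFP both type I chains of cluster 6 lay below every fibroblast sum of 3 cells or more, and Col3a1 overlapped cluster 1 alone. Cluster 8, high in pericyte markers, had strain means between those of clusters 6 and 7 in types I and III and held more Col5a3 than either. Col1a1 averaged 45.7 ± 9.22 CPM in cluster 7 (SD, n = 3 strains), 516 ± 413 CPM in cluster 8 (n = 4) and 1605 ± 1182 CPM in cluster 6 (n = 3). The ranges of clusters 7 and 8 did not overlap for Col1a1, Col1a2 or Col3a1, whereas cluster 6 overlapped cluster 8 in Col1a1. The clusters that supplied the mural counts differed between the sorts. In Cspg4dsRED, the 33 cells of cluster 6 were 24.1% of mural cells and held 78.5% of mural Col1a1 counts. In C57BL6, 3 cells of cluster 6 held 64.6% of them. In PdgfrbGFP, which had no cell in cluster 6, cluster 8 held 98.9%, and in Acta2GFP it held 76.3% from 15 of 51 mural cells.

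Cluster 8 was compared with cluster 7 in the 3 strains with enough cells of both. Col1a1 had 404 CPM (PdgfrbGFP), 308 CPM (Cspg4dsRED) and 1126 CPM (Acta2GFP) in cluster 8, and 39.7, 41 and 56.3 CPM in cluster 7. Col3a1 had 377, 337 and 2225 CPM against 23.6, 53.3 and 92.8 CPM. Col5a2 had 70.9, 199.3 and 355 CPM against 2.45, 18.2 and 6.94 CPM. In each of these members the lowest cluster 8 value exceeded the highest cluster 7 value. Col5a1 overlapped, with 3 to 33.3 CPM in cluster 8 and 0.335 to 3.18 CPM in cluster 7. Col5a3 had 302, 327.7 and 13.1 CPM in cluster 8 and 1.47, 0.614 and 2.17 CPM in cluster 7, where the values rest on 3, 11 and 26 counts. No member passed the edgeR test, in which 0.194% of 11867 genes were called, although 5 of the 6 members tested had an unadjusted p under 0.05, against 6.88% of all genes. Without the filter on low counts 4 members passed, with 0.855% of all genes. DESeq2 called 4 members and 3.2% of all genes, and limma-voom 0 members and 1.31% of all genes. The median log2 fold change of the 6 was 3.92, against 0.18 over all genes. The log2 fold change was 3.71 for Col1a1 (SE 0.71, adjusted p 0.0681), 4.13 for Col3a1 (SE 0.86, adjusted p 0.0986), 7.15 for Col5a3 (SE 1.44, adjusted p 0.0811) and 4.49 for Col5a2 (SE 1.12, adjusted p 0.168). With the strain as a block, Col1a1 (adjusted p 0.0265) and Col3a1 (0.0108) passed, with 0.691% of all genes. Without Acta2GFP, Col5a3 passed at a log2 fold change of 8.15 (adjusted p 0.000746), with 0.987% of all genes, and without Cspg4dsRED Col3a1 passed (0.0471), with 0.112%.

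Acta2GFP stood apart within cluster 8. Its 15 cells had the highest Col1a1, Col1a2, Col3a1 and Col5a2 of the 4 strains, at 1126, 917, 2225 and 355 CPM, and the lowest Col5a3, at 13.1 CPM against 218.4, 302 and 327.7 CPM in the others. In the same cells the 4 pericyte markers summed to 6942 CPM, the lowest of the strains, the 4 smooth muscle markers to 4033 CPM, the highest, and the 5 fibroblast markers to 2085 CPM, also the highest. The part of these markers in the collagen values was not tested.

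Cluster 6 was compared with clusters 7 and 8 in C57BL6, Cspg4dsRED and Acta2GFP. Its strain means were above theirs for both type I chains, Col3a1, Col5a1 and Col5a2, and below for Col5a3, whose counts in the pooled group came mostly from cluster 8. Col1a1 had 2970 CPM in C57BL6, 942 in Cspg4dsRED and 904 in Acta2GFP, against 218.7, 113.5 and 440 CPM in clusters 7 and 8, and Col1a2 had 3189, 1474 and 1233 CPM against 294, 290.96 and 441 CPM. Col3a1 had 3882, 1248 and 835 CPM against 603, 130 and 858 CPM. The type I chains did not overlap between the groups, while Col3a1 in Acta2GFP was slightly lower in cluster 6. Cluster 6 of C57BL6 was the highest in all 3 and was the sum of 3 cells, with the fibroblast markers at 9297 CPM given above, whose part in these levels was not tested. Col5a3 had 0.98, 0.37 and 2.16 CPM in cluster 6, on 1, 4 and 4 counts, and 211.7, 89.3 and 6.11 CPM in clusters 7 and 8. Cluster 8 held 99.9%, 99.3% and 74.6% of the mural Col5a3 counts in these strains, and cluster 7 alone averaged 1.42 CPM against 1.17 CPM in cluster 6. No member passed the edgeR test, in which 0.033% of 12117 genes were called, and 5 of 6 members tested had an unadjusted p under 0.05, against 5.74% of all genes. Without the filter on low counts 2 members passed, with 0.418% of all genes. DESeq2 called 1 member and 2.81% of all genes, and limma-voom 2 members and 0.479%. The log2 fold change was 2.68 for Col1a1 (SE 0.63, adjusted p 0.286), 2.57 for Col1a2 (SE 0.47, adjusted p 0.121), 1.93 for Col3a1 (SE 0.67, adjusted p 0.555) and -6.34 for Col5a3 (SE 1.98, adjusted p 0.453), with a median of -0.32 over all genes. With the strain as a block, Col1a1 (adjusted p 8.46e-05), Col1a2 (1.93e-05) and Col3a1 (0.00139) passed, with 0.883% of all genes. The same 3 passed without Acta2GFP (0.00777, 0.0194 and 0.0406), with 0.495% of all genes, but none without C57BL6 or without Cspg4dsRED.

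**Figure D3:**
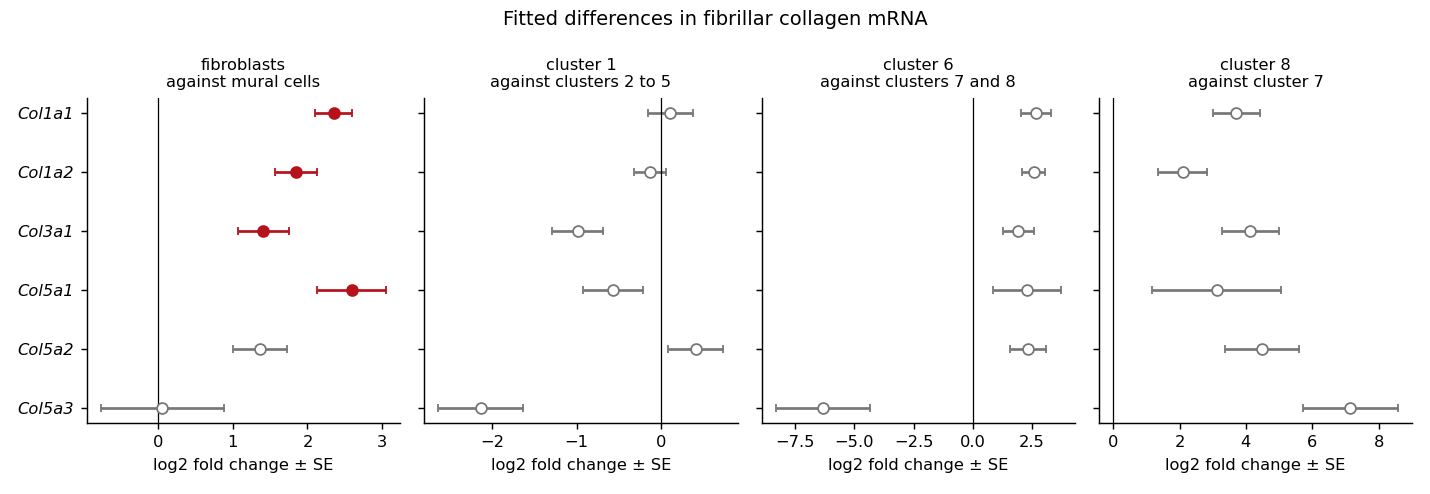
Log2 fold changes with standard errors from the edgeR fits for 6 fibrillar collagens in 4 comparisons (positive values are higher in the group named first); filled red points had an adjusted p under 0.05. The 4 filled points lie in the comparison of fibroblasts with mural cells, and Col5a3 lies at -6.34 for cluster 6 and at 7.15 for cluster 8.

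Cluster 1, high in markers of valve or tendon-like cells, was compared with the other fibroblasts, clusters 2 to 5. Its strain values overlapped theirs in the type I chains and lay below theirs in Col3a1 and Col5a3, with fitted folds of 1.99 and 4.41, but no member passed the test. Cluster 1 had 898, 1063, 526 and 1236 CPM of Col3a1, and clusters 2 to 5 had 1735, 1384, 2109 and 2340 CPM. Col5a3 had 66.1, 17.6, 30.9 and 26.8 CPM against 214.01, 145.3, 124.8 and 139.02 CPM. Neither member overlapped between the groups. For Col5a3 the pooled group held cluster 2, with a mean of 310.1 CPM, and cluster 1 did overlap cluster 4, which began at 58.3 CPM. Col1a1 had 2744, 3194, 1605 and 2016 CPM in cluster 1 and overlapped clusters 2 to 5, and so did Col1a2, Col5a1 and Col5a2. In the edgeR test, in which 1.33% of 13201 genes were called, 0 of 7 members tested were called and 3 had an unadjusted p under 0.05, against 8.87% of all genes. DESeq2 called 1 member, Col5a3, and 5.22% of all genes, and limma-voom 0 members and 2.93% of all genes. The log2 fold change was -0.99 for Col3a1 (SE 0.30, adjusted p 0.181), -2.14 for Col5a3 (SE 0.50, adjusted p 0.0636), 0.11 for Col1a1 (SE 0.27, adjusted p 1) and 0.41 for Col5a2 (SE 0.33, adjusted p 0.913). The median over the 7 was -0.13, against -0.03 over all genes. Cluster 1 of Cspg4dsRED held 3 cells.

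Among clusters 2 to 5, Col5a3 had the lowest unadjusted p of the 6 members tested for clusters 2, 4 and 5, but not for cluster 3. Cluster 2 had 444, 335, 230.7 and 230.7 CPM, above clusters 3 to 5 together in 4 of 4 strains, whose values ran from 49 to 137.7 CPM. The log2 fold change of cluster 2 was 1.90 (SE 0.37, edgeR adjusted p 0.177, unadjusted p 0.000308). Cluster 4 was below the others with -1.19 (SE 0.30, adjusted p 0.341), cluster 5 with -0.89 (SE 0.29, adjusted p 1) and cluster 3 with -0.78 (SE 0.58, adjusted p 0.999), where Col5a2 had the larger difference, -0.97 (SE 0.87, adjusted p 0.999). These 3 clusters were each set against a group that held cluster 2, and among themselves they overlapped. Cluster 4 had 132.2 CPM in C57BL6, 88.6 in PdgfrbGFP and 66.8 in Acta2GFP, where cluster 3 had 146.1, 66.6 and 68.5 CPM. In these 4 comparisons edgeR called no gene, so the background was 0% of 13870, 14803, 14104 and 16214 genes for clusters 2, 3, 4 and 5, with 641, 895, 670 and 630 genes at an unadjusted p under 0.05. DESeq2 called genes in each, at most 387 for cluster 3, and limma-voom 8, 0, 35 and 0. With the strain as a block edgeR called 35 genes for cluster 3 and 0 for the others, and without the filter 2, 19, 5 and 31. DESeq2 called Col5a3 higher in cluster 2 (adjusted p 0.000187), with 1.22% of all genes, and lower in cluster 4 (adjusted p 0.0159), with 1.29%. The log2 fold changes of Col1a1 and Col1a2 in the 4 comparisons lay between -0.12 and 0.27, with standard errors of 0.16 to 0.20. Col5a1 and Col5a2 were lowest in cluster 3 among the fibroblasts, at 142.5 ± 49.5 and 128.3 ± 107.3 CPM (SD, n = 3 strains), and the Col5a2 value of PdgfrbGFP there was 6.48 CPM from 7 cells.

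Most neighbours in the order of cluster means could not be separated by their strain ranges. For Col1a1 the order ran from cluster 4 (2409 CPM) through 1, 2, 5, 3, 6 and 8 to 7, and only clusters 8 and 7 were apart, though without the 3 C57BL6 cells cluster 6 lay below cluster 3 as well. For Col1a2 it ran 4, 6, 2, 1, 3, 5, 8, 7, with breaks below cluster 5 and below cluster 8. For Col3a1 it ran 4, 6, 2, 3, 5, 1, 8, 7, with breaks between clusters 5 and 1, at 1470 and 931 CPM, and between clusters 8 and 7. For Col5a1 it ran 4, 2, 5, 1, 3, 6, 8, 7, with 1 break, between 6 and 8, at 130.9 and 32.4 CPM. Col5a2 had no break in the order 6, 1, 4, 2, 5, 8, 3, 7. The high places of cluster 6 rest on the 3 C57BL6 cells. Without them, an alternative chosen after seeing the data, its mean fell from 1965 to 1353 CPM for Col1a2 (place 6 of 8), from 1988 to 1041 CPM for Col3a1 (place 5) and from 445.2 to 275.4 CPM for Col5a2 (place 4). Col5a3 ran 2, 8, 5, 3, 4, 1, 7, 6, with 1 break between cluster 1 at 35.3 CPM and cluster 7 at 1.42 CPM.

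Strains also differed within the same clusters. Over clusters 2 to 5, Col3a1 was 1384 CPM in PdgfrbGFP and 2340 CPM in Acta2GFP, while Col1a1 lay between 2131 and 2419 CPM in all 4. Col5a2 had 252.9, 171.7, 463 and 361 CPM. The 2 large plates of C57BL6 differed as well. Over clusters 2 to 5, Col1a1 was 1975 CPM on one and 2705 CPM on the other, and Col3a1 was 1824 and 1596 CPM. For Col1a1 the plates of this strain lay further apart than the 4 strain sums.

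Levels of different chains were compared per kilobase of annotated exons, taken as the union over transcripts, which may exceed the mRNA in use. This union was 6563 bases for Col1a1 and 12426 bases for Col1a2. All ratios and shares of chains depend on such lengths. Fibroblast means were 2257 CPM of Col1a1 and 1884 CPM of Col1a2, so their ratio per length rested largely on the lengths. The log2 ratio of Col1a1 to Col1a2 in fibroblasts averaged 1.18 ± 0.21 (SD, n = 4 strains), 2.27 times as much Col1a1 per length as Col1a2. It was 1.35 ± 0.16 or less in every cluster, down to -0.28 ± 1.40 in cluster 7, where the strains ran from 0.374 to 2.43 times. The ratio of type I to type III (Col1a1 and Col1a2 over Col3a1) was 5.48 in cluster 1, with strains from 3.47 to 7.26, and 2.63 in clusters 2 to 5, with strains from 2.09 to 3.63. The difference was 1.06 ± 0.46 on the log2 scale and had the same sign in 4 of 4 strains. In cluster 8 the ratio was 1.54, from 0.896 in C57BL6 and 1.08 in Acta2GFP to 2.58, the lowest cluster mean. The ratio of type V to type I per length was 0.522 in cluster 8, with strains from 0.175 to 0.864, and 0.081 in cluster 7, with strains from 0.0627 to 0.0958. It was 0.224 in cluster 2, 0.134 in cluster 1 and 0.0849 in cluster 3. No p-value is given for ratios of members.

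**Figure D4:**
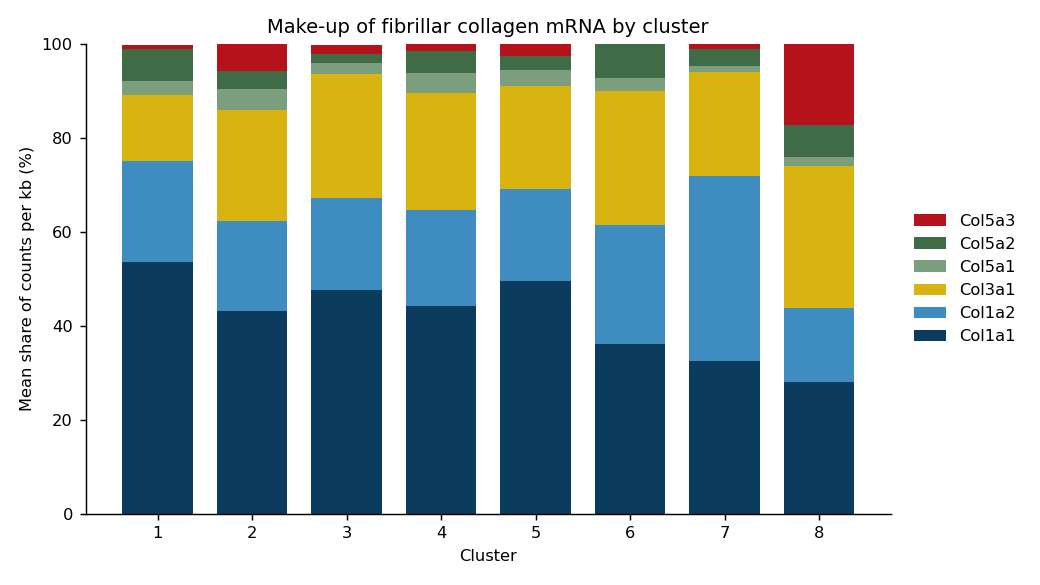
Mean share over strains (%) of each fibrillar collagen in the summed counts per kilobase of the 8 members, by cluster; Col2a1 and Col11a1, at most 0.225%, are not drawn. Col5a3 takes 17.3% in cluster 8 and 5.74% in cluster 2, and Col3a1 takes 14.1% in cluster 1.

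The members' make-up was also given as shares of their summed counts per kilobase. Col1a1 made up 53.5% ± 6.59 in cluster 1 (SD, n = 4 strains) and 28.1% ± 6.86 in cluster 8 (n = 4). Col3a1 made up 14.1% ± 4.39 in cluster 1 and 22% to 26.4% in clusters 2 to 5. Col5a3 made up 17.3% ± 11.6 in cluster 8, from 0.375% in Acta2GFP to 25.1%, and 0.0368% in cluster 6. Col5a2 made up 6.71% in cluster 1, 7.2% in cluster 6 and 6.8% in cluster 8, against 1.86% in cluster 3. Together the members took a median of 0.528% to 0.636% of all counts of a cell in clusters 1 to 5, 0.333% in cluster 6, 0.0152% in cluster 7 and 0.13% in cluster 8.

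Single cells were compared at equal depth by drawing 50000 counts from each; 2 shallower cells, both mural, were not used. After thinning, Col1a1 had a count in 99.6% of 926 fibroblasts (95% Wilson interval 98.9% to 99.8%) and in 78.6% of 351 mural cells (74% to 82.6%), at median depths before thinning of 300090 and 208557 counts. Without thinning the shares were 99.9% and 91.2%. Col5a1 had a count in 53.8% of fibroblasts and 21.1% of mural cells, and Col5a2 in 60.7% and 31.3%. Col5a3 had a count in 66.2% of cluster 2 cells (59.7% to 72.1%), in 28.6% of cluster 1 cells (19.3% to 40.1%), in 35.4% of cluster 8 cells (29% to 42.3%), in 6.84% of cluster 7 cells (3.51% to 12.9%) and in 2.56% of cluster 6 cells (0.454% to 13.2%). Without thinning these Col5a3 shares were 81.3%, 62.9%, 56.6%, 23.7% and 12.8%. By strain, the thinned share in cluster 8 was 62.1% in Cspg4dsRED, 42.4% in C57BL6, 30.5% in PdgfrbGFP and 6.67% in Acta2GFP. Intervals treat pooled cells as independent and leave out the spread between strains, so they cover counting error only. Several reads may also stem from 1 molecule.

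**Figure D5:**
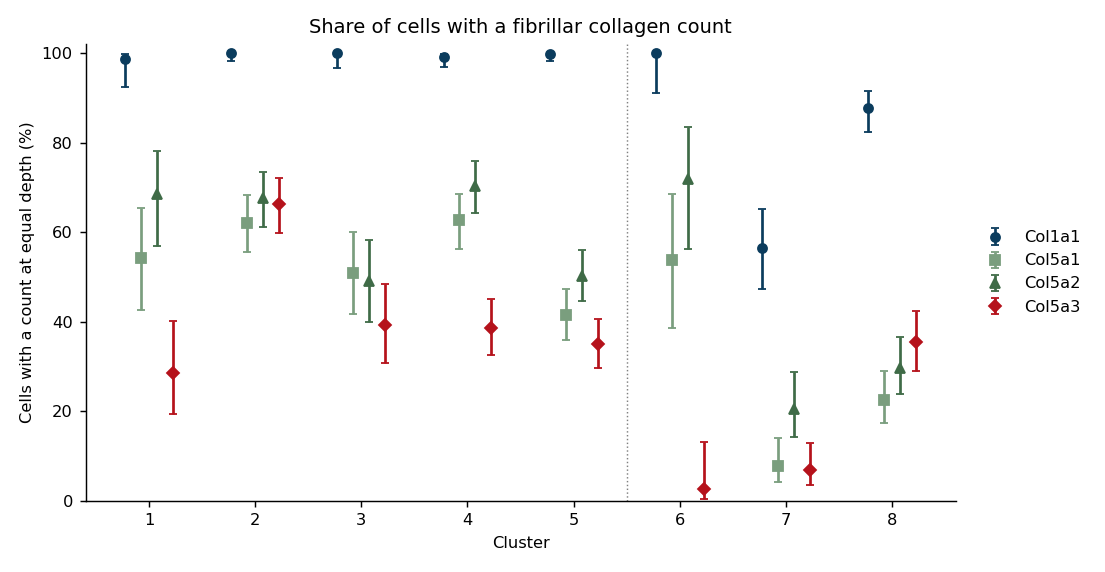
Share of cells (%) with at least 1 count of Col1a1, Col5a1, Col5a2 or Col5a3 after thinning each cell to 50000 counts, by cluster, with 95% Wilson intervals over pooled cells. Col1a1 is near 100% in clusters 1 to 6 and 56.4% in cluster 7, and Col5a3 reaches 66.2% in cluster 2 and 35.4% in cluster 8.

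Cells of a cluster varied widely. In cluster 2 the median cell had 204.8 CPM of Col5a3 with an upper quartile of 607 CPM. In cluster 8 the median was 4.82 CPM, the upper quartile 80.5 CPM and the highest cell reached 4276 CPM. Col3a1 in cluster 8 had a median of 52 CPM and an upper quartile of 607 CPM. Within a strain and cluster, members were compared across cells. Over 11 fibroblast sets of 20 or more cells, the median Pearson r of log2(CPM + 1) was 0.31 for Col1a1 with Col1a2 (0.10 to 0.62), 0.27 for Col1a2 with Col3a1 (0.01 to 0.51), 0.24 for Col1a1 with Col3a1 (0.04 to 0.59), 0.19 for Col5a1 with Col5a2 (-0.08 to 0.42) and 0.02 for Col5a2 with Col5a3 (-0.17 to 0.20). Over 6 mural sets it was 0.17 for Col1a1 with Col1a2 (-0.11 to 0.46) and 0.20 for Col1a1 with Col3a1 (-0.04 to 0.81, the highest in cluster 7 of Acta2GFP). Cells of a set share their plate and differ in depth, and these values carry no test.

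Col2a1 and Col11a1 were rare. Col2a1 had 4 counts, 1 in each of 4 cells of clusters 2, 3, 4 and 5, and was not tested. No count fell in the 353 mural cells, which allows up to 0.85% of such cells with a count at this depth and does not limit the cells that express the gene. The 6 cartilage markers ranged from Matn1, in 0 cells, over Matn3 (5), Hapln1 (22), Acan (26) and Cnmd (270) to Sox9, in 783 cells. Col11a1 had 655 counts in 40 cells, and 5 cells held 74.7% of them. Cluster 1 held 496 of these counts in 11 of its 70 cells, and a single cell of cluster 3 in PdgfrbGFP held most of the rest, so that cluster 3 averaged 19 ± 32.4 CPM (SD, n = 3 strains), against at most 0.0816 CPM in clusters 2, 4 and 5. By strain, cluster 1 had 47 CPM in C57BL6, 15.8 in Acta2GFP, 6.19 in PdgfrbGFP and 0 in Cspg4dsRED, whose 3 cells carried no count. The edgeR log2 fold change of cluster 1 over clusters 2 to 5 was 4.86 (SE 1.93, adjusted p 0.425), with higher values in 3 of 4 strains. Against mural cells, fibroblasts had a Col11a1 log2 fold change of 3.09 (SE 1.59, adjusted p 0.382).

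Of the 3 other fibrillar collagen genes, Col11a2, the second type XI chain, was higher in cluster 1 than in clusters 2 to 5. It averaged 21.7 ± 10 CPM against 0.0703 ± 0.112 CPM (SD, n = 4 strains), higher in 4 of 4 strains, with an edgeR adjusted p of 0.039. That call was lost with the strain as a block and without any 1 strain. Col27a1 averaged 0.459 ± 0.562 CPM in cluster 1, against 11.7 ± 10.9 CPM among the other fibroblasts (adjusted p 0.218). Col24a1 did not pass the filter on low counts.

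The genes that make, trim and bind fibrillar collagen were read as lists in the same fits. The share of all genes called was 5.93% for fibroblasts against mural cells and the median over all genes -0.02. Among 17 genes of chain modification and folding, 2 were higher in fibroblasts than in mural cells and none lower: P4hb, the protein disulfide isomerase of prolyl hydroxylase (log2 fold change 0.96, SE 0.24, adjusted p 0.0429), and P3h4 (1.24, SE 0.30, adjusted p 0.0395). Both lost the call with DESeq2 size factors, without the filter and without any 1 strain, and 1 of them with the strain as a block. The median over the 17 was 0.75. Among 10 tested genes of secretion and propeptide removal, 3 were higher: Bmp1, which cleaves the C-propeptide (2.37, SE 0.37, adjusted p 0.00496), and its enhancers Pcolce (1.57, SE 0.37, adjusted p 0.035) and Pcolce2 (4.35, SE 0.49, adjusted p 0.000781). Of 4 tested cross-linking enzymes only Loxl1 was higher (2.67, SE 0.62, adjusted p 0.0312), and not with the strain as a block.

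Of 13 tested partners of fibril assembly, 5 were higher in fibroblasts, Dcn, Bgn, Lum, Fmod and Prelp, all small proteoglycans of the matrix, where 5.93% of all genes were called. Lum had a log2 fold change of 4.16 (SE 0.40, adjusted p 0.000419), Fmod one of 3.62 (SE 0.73, adjusted p 0.0162) and Dcn one of 3.06 (SE 0.47, adjusted p 0.00476). Dcn, Lum and, among the genes of breakdown, Mmp2 are also fibroblast markers. Of 7 tested receptors, Mrc2, which takes up collagen for degradation, was higher in fibroblasts (2.06, SE 0.41, adjusted p 0.0148) and the integrin chain Itga1 was lower (-3.47, SE 0.43, adjusted p 0.00139). Of 6 tested genes of breakdown, 4 were higher: the inhibitors Timp1 (5.01, SE 0.50, adjusted p 0.000489) and Timp2, the gelatinase Mmp2 (3.33, SE 0.36, adjusted p 0.000651) and the protease Ctsk (2.56, SE 0.45, adjusted p 0.0085). The list medians were 0.87 for secretion, 0.80 for cross-linking, 1.59 for assembly partners, -0.09 for receptors and 2.50 for breakdown.

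Within fibroblasts, cluster 1 had calls among the assembly partners, in a comparison where 1.33% of all genes were called. Of 13 tested partners, 3 were higher than in clusters 2 to 5: Fmod (5.21, SE 0.59, adjusted p 0.00197), Comp (3.73, SE 0.43, adjusted p 0.00212) and Prelp. Tnxb (-2.97, SE 0.63, adjusted p 0.0469) and Ogn were lower. Fmod and Comp had also been used here as markers of valve or tendon-like cells. P3h2, a prolyl 3-hydroxylase, was higher (3.16, SE 0.59, adjusted p 0.0302), as was the inhibitor Timp3 (1.58, SE 0.23, adjusted p 0.00745), while the membrane collagenase Mmp14 was lower (-2.15, SE 0.44, adjusted p 0.0416). No gene of the secretion, cross-linking or receptor lists was called. In cluster 8 against cluster 7, Postn, a matrix protein that binds collagen, was the 1 list gene called, where 0.194% of all genes were, with 2185 ± 275.8 against 90.6 ± 109.1 CPM (SD, n = 3 strains, log2 fold change 4.60, SE 0.78, adjusted p 0.0407). That call was lost without PdgfrbGFP, which also left the comparison with sums of 10 cells or more, where no gene was called and 1514 of 12803 had an unadjusted p under 0.05. With the strain as a block 3 of 13 tested assembly partners passed in that comparison, with 0.691% of all genes. In cluster 6 against clusters 7 and 8 no list gene was called. With the block 6 of 13 tested partners, 5 higher and 1 lower, and 1 of 4 cross-linking enzymes passed there, with 0.883% of all genes.

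Over the 21 sums of a strain and cluster with 10 cells or more, the patterns of types I and III were close. Pearson's r of log2(CPM + 1) was 0.96 for Col1a1 with Col1a2, 0.92 for Col1a1 with Col3a1 and 0.91 for Col1a1 with Col5a1. With Col5a3, the same measure was 0.46 for Col1a1, 0.32 for Col1a2, 0.45 for Col3a1, 0.43 for Col5a1 and 0.42 for Col5a2. Among 10326 genes with a mean of 10 CPM or more, those nearest to Col1a1 were S100a10, Mxra8 and Mmp2, each at r = 0.96. Those nearest to Col3a1 were Celf2, Adamts2 and Tram1 at 0.93 to 0.95, and those nearest to Col5a1 were Nupr1, Tspo and Htra3 at 0.94 to 0.95. Col1a2 was nearest to Col1a1, then to Vcam1 and S100a10 at 0.94. Col5a3 was nearest to Ifitm3, Tuba1a and Marcks at 0.90 to 0.91. The 21 sums share strains and plates, and no test was made.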

How the data were processed

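The values were whole read counts of single cells, deposited by the authors as raw counts with no scaling. According to the methods of the study, adapters were removed, reads were mapped to GRCm38 with TopHat2 and featureCounts assigned them to genes. The submitters' processing notes also name bcl2fastq, Bowtie, Bowtie2 and Subread. The annotation release and strand setting are not given in the sources used here. The authors had removed low-quality cells, likely doublets, cells lacking both PDGF receptor genes and contaminated cells, and had clustered the rest on the same counts. No cell was left out here and no doublet caller was run.

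For each comparison, the cells of a strain on either side were added up where both sides had 3 cells or more, and CPM were taken without the spike-ins. Sums were tested with edgeR 4.0.16 (R 4.3.3; TMM, filterByExpr with a minimum count of 10, quasi-likelihood test, Benjamini-Hochberg over all genes tested, threshold 0.05). Standard errors were derived from the size of the log2 fold change and its F statistic. limma 3.58.1 and DESeq2 1.42.0 were alternatives, and the code was tested on simulated counts. Sums of the same strain share its sort and plates. Their deviations from the group means correlated at 0.03 to 0.24 over the comparisons, so the strain was also fitted as a block. Comparisons between clusters are not independent of that clustering. Where groups are said not to overlap, the share of all genes without overlap was not counted. Exon lengths and coordinates came from GENCODE M21.

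Named genes were the 8 members, up to 3 called genes per list with the largest fold change, and 3 pattern neighbours per member; those of Col5a2 are not reported here. The members and lists were chosen with earlier results of these data known.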

Additional observations from a re-analysis of the deposited data

Results flagged for a closer look

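Col5a3 in cluster 8 of Acta2GFP stood far from the other 3 strains on the log scale. It had 13.1 CPM, against 218.4 CPM in C57BL6, 302 CPM in PdgfrbGFP and 327.7 CPM in Cspg4dsRED. On log2(CPM + 1) the gap took 0.871 of the whole range, beyond Dixon's 95% critical value for 4 samples, while on the CPM scale it took 0.652 and was not beyond it. Of the 25 sets of 4 strains tested, 1 was so marked on the log scale and 1 on the CPM scale, Col3a1 in cluster 8, where Acta2GFP had 2225 CPM against 622, 377 and 337 CPM. Chance marks about 1 in 20.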

How the results depend on the processing

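Over 506 alternatives for single members, 439 kept direction and call, 31 gained a call, 8 lost it and 28 turned direction. Ratios stayed within the strain spread in 75 of 75 alternatives, and cluster levels moved beyond it in 5. The number of members called was 4 for fibroblasts against mural cells, where 896 of all genes were called. It was 2 to 3 with a strain left out, where 409 to 605 of all genes were called, with 2 members without Cspg4dsRED or PdgfrbGFP. For cluster 6 it was 0, but 2 without the filter (0.418% of all genes), 3 with the strain as a replicate block (0.883%), 1 with DESeq2 (2.81%), 2 with limma-voom (0.479%) and 0 to 3 with a strain left out. For cluster 8 against 7 it was 0, but 4 without the filter (0.855%), 2 with the block (0.691%), 4 with DESeq2 (3.2%) and 0 to 1 with a strain left out. DESeq2 called 1 member, Col5a3, for each of clusters 1, 2 and 4. Beside the calls given with the block in the report, the block changed no other member's call. All values that turned direction were small and uncalled. Col5a3 in fibroblasts against mural cells was -0.03 with DESeq2 size factors, -0.04 with DESeq2 and -0.23 to 0.74 with a strain left out. Col1a1 in cluster 1 ran from -0.04 to 0.24 with a strain left out. In cluster 2, with a strain left out, Col1a1 ran from -0.03 to 0.08, Col1a2 from -0.02 to 0.06, Col3a1 from -0.11 to 0.07 and Col5a2 from -0.14 to 0.02. There Col1a1 and Col1a2 were -0.00 without the filter, as was Col1a2 with 1 C57BL6 plate; Col3a1 was 0.10 with limma-voom and 0.07 with 10 cells or more per sum, and Col5a2 0.09 and 0.02. In cluster 3, Col1a2 was 0.25 with DESeq2 and with its size factors and -0.10 to 0.05 with a strain left out, and Col3a1 was -0.01 with limma-voom. In cluster 5, Col5a2 was 0.02 with DESeq2, its size factors and the block, and 0.13 with 1 C57BL6 plate. The cause was not tested. DESeq2 size factors moved the median of all genes from -0.32 to -0.17 for cluster 6, from 0.18 to 0.04 for cluster 8 and from -0.13 to 0.04 for cluster 3. Sums of 10 cells or more for cluster 6, and cluster 5 without either strain, were not run because 1 strain would remain.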
